A study of Mus musculus with 12 samples.

Results

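Ttr, Krt7, Tstd1 and Sord are 4 of the 32285 genes measured in single cells of mouse small intestinal organoids. They were selected on their lower counts in stem-like cells after co-culture with Treg cells, so that the values of this contrast chose the members and are given here as a description, without a test. Organoids were grown from wild-type BALB/c crypts, and the 6 groups were organoids cultured alone (control), co-cultured with allogeneic CD25high FoxP3-GFP+ Treg cells, co-cultured with Treg cells plus anti-IFNγ, plus anti-IL-10R or plus both antibodies, and stimulated with rIFNγ plus rIL-10 without T cells. Co-cultures held 100000 T cells per well, kept apart from the organoid drop, with 30 U/ml IL-2 and CD3/CD28 beads for 4 days, and the labels do not say whether organoids without T cells also received IL-2 and beads. Antibodies were used at 10 µg/ml, rIFNγ at 0.25 ng/ml and rIL-10 at 10 ng/ml. Live EpCAM+ cells of each group carried a hashtag antibody and were pooled, so that each library held all 6 groups. Replicates 1 and 2 consisted of 2 libraries each, and replicate 3 of 1, because its other library was left out. One hashtag always marked the same group, and an effect of the hashtag and of the treatment cannot be told apart.

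The small intestinal epithelium is renewed from Lgr5+ stem cells (ISCs) at the crypt base, whose daughters divide as transit-amplifying (TA) cells and mature through enterocyte progenitors (EPs) to enterocytes, or into goblet, Paneth, tuft and endocrine cells. IFNγ raises genes of antigen presentation, in part through GAS elements in promoters. The 4 genes are not known as parts of one pathway. Ttr encodes transthyretin, a carrier of thyroxine and, with retinol-binding protein, of retinol. Krt7 encodes a type II keratin of simple epithelia. Tstd1 encodes a small protein with a thiosulfate sulfurtransferase domain. Sord encodes sorbitol dehydrogenase, which oxidizes sorbitol to fructose.

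In GRCm38.p6, Tstd1 lies at chr1:171419033-171420352, Sord at chr2:122234839-122265337 and Krt7 at chr15:101412403-101427806, like Ttr on the plus strand. In the GENCODE annotation, Tstd1 overlaps Usf1 on the same strand and Krt7 overlaps Gm671 on the other, so that the counts from the shared part of Tstd1 and Usf1 are uncertain. Because the members were lower in the same comparison, the promoters of Tstd1, Sord and Krt7 are shown to let their sequences be compared, each as 300 bases from 250 before the start of the gene. Capitals mark TATAAA and the GC box GGGCGG on either strand.
Tstd1 promoter (chr1:171418783-171419082, plus strand, RefSeq GRCm38.p6): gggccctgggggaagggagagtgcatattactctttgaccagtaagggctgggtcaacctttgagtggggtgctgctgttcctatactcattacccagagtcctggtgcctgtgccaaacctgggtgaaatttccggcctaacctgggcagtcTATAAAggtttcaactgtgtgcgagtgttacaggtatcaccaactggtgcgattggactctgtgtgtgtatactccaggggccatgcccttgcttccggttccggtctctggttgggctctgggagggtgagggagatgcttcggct
Sord promoter (chr2:122234589-122234888, plus strand, RefSeq GRCm38.p6): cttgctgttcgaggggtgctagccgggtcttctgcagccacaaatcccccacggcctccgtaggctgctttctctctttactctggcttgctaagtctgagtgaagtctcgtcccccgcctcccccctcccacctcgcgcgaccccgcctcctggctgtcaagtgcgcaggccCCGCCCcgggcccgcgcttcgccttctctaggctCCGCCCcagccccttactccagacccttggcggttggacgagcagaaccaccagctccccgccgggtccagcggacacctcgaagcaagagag
Krt7 promoter (chr15:101412153-101412452, plus strand, RefSeq GRCm38.p6): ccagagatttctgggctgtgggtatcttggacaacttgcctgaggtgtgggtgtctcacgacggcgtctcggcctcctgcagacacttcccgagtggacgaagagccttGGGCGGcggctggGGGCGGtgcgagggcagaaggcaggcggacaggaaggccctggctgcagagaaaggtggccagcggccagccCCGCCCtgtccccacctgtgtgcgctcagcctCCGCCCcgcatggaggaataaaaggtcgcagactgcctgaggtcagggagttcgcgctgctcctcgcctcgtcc
The Tstd1 promoter held 1 TATAAA and no GC box, with 55.0% G and C, while those of Sord and Krt7 held 2 and 4 GC boxes and no TATAAA, with 66.7% and 66.3% G and C. Among 32817 mouse promoters of this length, 13.6% held TATAAA, 35.6% held a GC box, and the median G and C content was 52.7%. The letters TTCNNNGAA of a GAS element occurred in none of the 3 and in 8.29% of all promoters, and those of the core of an interferon-stimulated response element in none of the 3 and in 3.43% of all. Each motif was searched on both strands, and their absence says only that these letters are not in these windows.

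Hashtags were called in each library, and 11301 cells passed the limits on depth out of 35985 barcodes in 5 libraries of 128917456 to 223155304 unique molecular identifiers (UMIs, which count single RNA molecules). Of the cells kept, 28 shared their barcode with a cell of another library. Control cells were clustered, clusters took names from marker genes where these allowed it, and all cells received the best matching class, giving 1682 ISC-like cells, 2871 TA-like cells, 1603 cells of cluster 2, 2212 enterocyte-like cells, 474 goblet/Paneth-like cells and 210 endocrine-like cells. With a replicate left out of the reference, 85.7%, 81.4% and 83.3% of its control cells (replicates 1 to 3) kept their class. The clusters themselves had been made with these cells. In ISC-like cells, Lgr5 was at 122 and Olfm4 at 2360 counts per 1000000 UMIs (CPM) in control organoids, while Tnfrsf19 had no UMI there. Of the 3 control clusters called ISC-like, 1 was led by small nucleolar RNA host genes and had none of the fixed stem cell markers among its 10 leading genes. That cluster held 144 control cells, and the others held 156 and 27. Its mean z score over the ISC markers was 0.22, against 0.86 and 1.22 in the others and 0.45 and 0.21 in the TA-like clusters. Over the TA markers its mean z score was -0.41, against 0.89 and 0.71 in the TA-like clusters. Cluster 2 had 2 EP markers (Dmbt1 and Rbp7) but 3 TA markers (Hist1h2ap, Birc5 and Mki67) among its 10 leading genes and is called by its number. Levels below are CPM in the sum of all cells of a class, group and replicate. The ISC-like sums held 28 to 168 cells and 1046128 to 5770784 UMIs, and the 2 smallest were those of cytokine-stimulated cells of replicates 1 and 3.

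In ISC-like cells, transcripts of all 4 genes were less frequent after Treg co-culture than in control organoids in 3 of 3 replicates and 5 of 5 libraries, which is the pattern that chose them. Ttr, at chr18:20664209-20674326 of GRCm38.p6, was at 55.0, 40.8 and 69.4 CPM in control replicates 1, 2 and 3 and at 33.7, 16.3 and 30.1 CPM after Treg co-culture, so that the groups did not overlap and the log2 fold change was -1.05. Tstd1 was at 165, 150 and 177 CPM in control and at 119, 86.5 and 129 CPM in co-culture, again without overlap, with a log2 fold change of -0.59. Replicate 2 was the lowest of the co-culture for both genes. Sord was at 43.5, 51.7 and 46.6 CPM in control and at 30.3, 35.3 and 37.0 CPM in co-culture (log2 fold change -0.50). Krt7 was at 63.5, 90.3 and 104 CPM in control and at 51.9, 74.4 and 72.3 CPM in co-culture (log2 fold change -0.37), and here the ranges overlapped although each replicate was lower than its own control. In this contrast, 0% of the 10897 genes tested passed an adjusted p of 0.05 with the quasi-likelihood test of edgeR. DESeq2 called 20 genes. With edgeR, 616 genes had an unadjusted p under 0.05, which is near the share that this threshold passes where no gene differs.

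**Figure D1:**
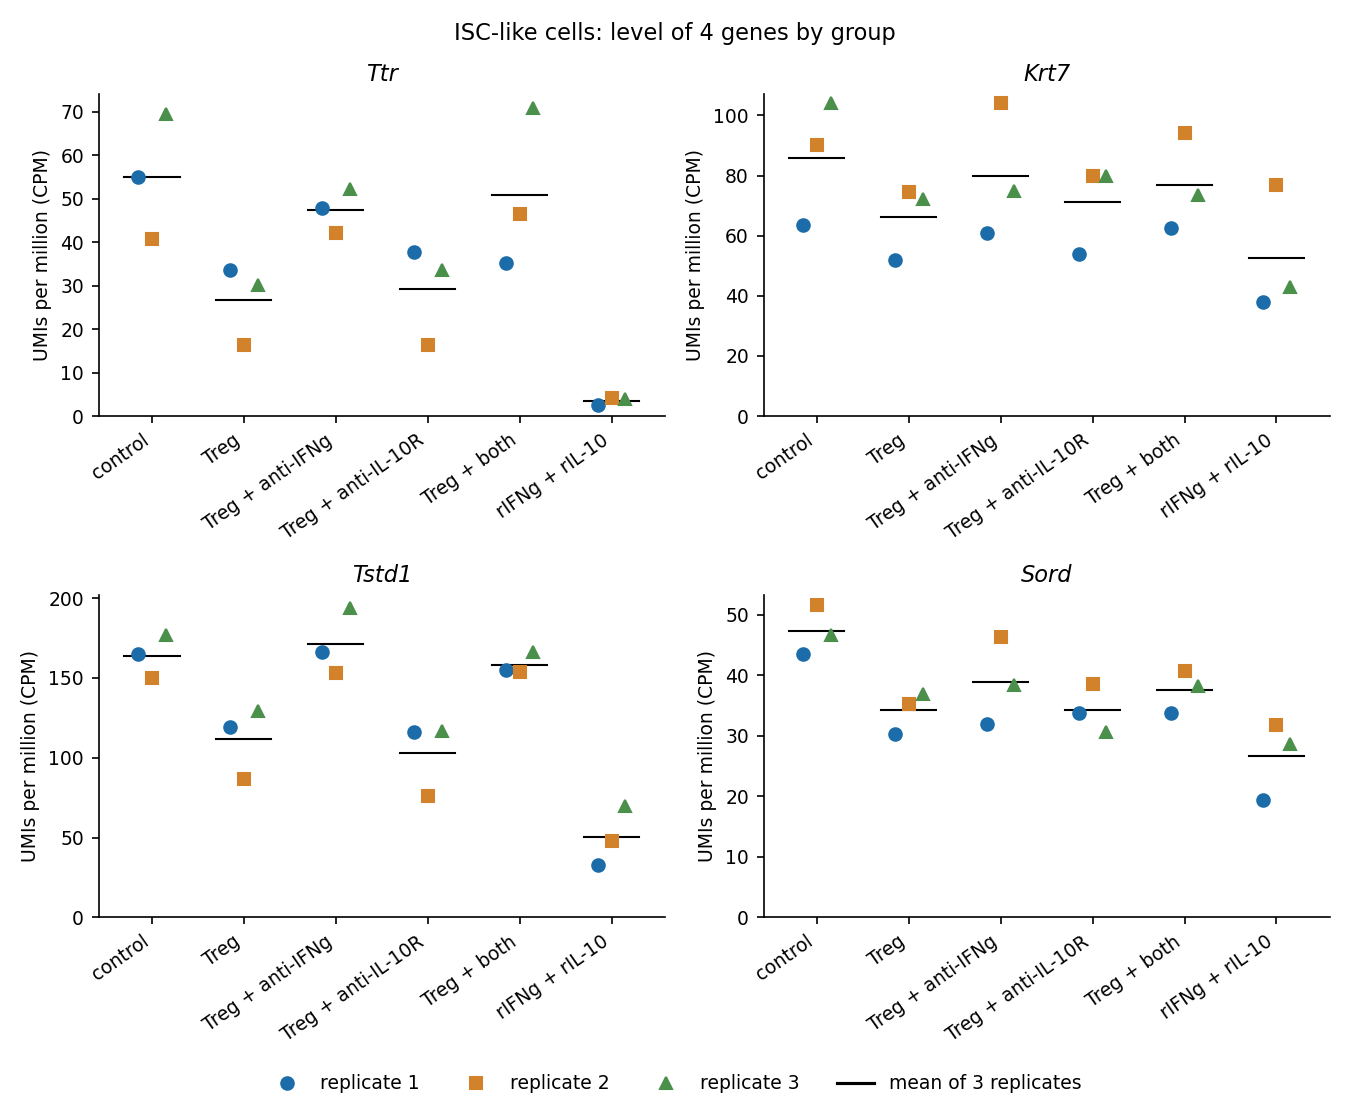
Level of Ttr, Krt7, Tstd1 and Sord in ISC-like cells, in CPM (y axis, from 0), for the 6 groups (x axis). Points are replicates 1 to 3 and black lines are their means. The means of Ttr and Tstd1 are lowest with rIFNγ plus rIL-10 (3.58 and 50.1) and lower with Treg cells and Treg plus anti-IL-10R than with anti-IFNγ or both antibodies, whereas neighboring groups overlap for Krt7 and Sord.

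Among the co-cultures with antibodies, the means of Ttr and Tstd1 were higher where anti-IFNγ was present. With anti-IFNγ, Ttr was at 47.9, 42.1 and 52.2 CPM in ISC-like cells, and with both antibodies at 35.2, 46.5 and 70.8 CPM. With anti-IL-10R alone it was at 37.7, 16.4 and 33.7 CPM. The values with anti-IL-10R were thus close to those of Treg cells without antibody in each replicate. Tstd1 was likewise lowest on average with anti-IL-10R alone, with 166, 153 and 194 CPM with anti-IFNγ, 155, 154 and 166 CPM with both antibodies and 116, 75.9 and 117 CPM with anti-IL-10R. The 3 replicates with anti-IL-10R lay below all replicates with anti-IFNγ and with both antibodies. Krt7 was at 60.8, 104 and 74.9 CPM with anti-IFNγ, 62.7, 94.0 and 73.6 CPM with both antibodies and 54.0, 80.0 and 80.0 CPM with anti-IL-10R. Sord was at 31.9, 46.3 and 38.4 CPM, 33.8, 40.8 and 38.2 CPM, and 33.8, 38.6 and 30.6 CPM in the same 3 groups. For both genes these groups overlapped, and the values of Sord with antibodies lay mostly below the control replicates.

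Stimulation with rIFNγ plus rIL-10 gave the lowest mean of every member in ISC-like cells. Ttr was at 2.65, 4.26 and 3.82 CPM, from 3, 13 and 4 UMIs. Tstd1 was at 32.7, 47.9 and 69.8 CPM, Krt7 at 38.0, 77.0 and 43.0 CPM and Sord at 19.4, 31.8 and 28.7 CPM. Ttr, Tstd1 and Sord lay below all control replicates, and Krt7 overlapped with control. The control cells are those that chose the members. How many of all genes lay apart in this way was not counted, so that this is a description. In the order of the 6 group means of Ttr, neighbors did not overlap between anti-IFNγ and anti-IL-10R and between Treg cells alone and cytokines, although replicate 1 with both antibodies lay within the range of anti-IL-10R. For Tstd1, neighbors did not overlap between both antibodies and Treg cells alone and between anti-IL-10R and cytokines. For Krt7 and Sord, all neighbors in the order overlapped. In sums of this kind, fewer cells that express a gene and less RNA per cell cannot be told apart. Shares of cells with a UMI were counted as well, but they also fall with less RNA per cell and do not separate these either.

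A Ttr UMI was found in 64.0% ± 7.8 (SD, n = 3) of the ISC-like cells of control organoids, in 41.9% ± 12 after Treg co-culture and in 9.25% ± 4.1 after cytokine stimulation. After thinning of each cell to 10000 UMIs, which removes differences in depth, these shares were 36.7% ± 6.0, 19.5% ± 9.6 and 4.24% ± 1.4. The median depth of ISC-like cells was 34546.5 UMIs in control, 35776 in co-culture and 35900 in cytokine-stimulated organoids. Free RNA gives a background in droplets, which the pooled groups of a library share. Its part in these values was not tested. Enterocyte-like cells are the class with the lowest Ttr. The share there was 16.0% ± 5.0 in control (median depth 36832 UMIs) and 0.821% ± 0.73 with cytokines (38902.5 UMIs). In the latter, Ttr was at 0.329, 0.293 and 0 CPM, the last of which allows up to 1.2 CPM (3 UMIs, counting error only). Tstd1 UMIs were present in 98.0% ± 2.5 of control, 92.0% ± 8.5 of co-cultured and 71.6% ± 15 of cytokine-stimulated ISC-like cells, and in 76.6% ± 4.9, 60.8% ± 10 and 35.2% ± 9.3 after thinning. Endocrine-like cells of control organoids, which hold the least Tstd1, had 7 Tstd1 UMIs in all, in 25.6% ± 21 of 24 cells (SD, n = 3, median depth 16787 UMIs). For Krt7 and Sord, the thinned shares were 58.7% ± 13 and 37.9% ± 6.2 in control, 44.5% ± 6.6 and 26.9% ± 5.9 in co-culture and 35.1% ± 19 and 16.9% ± 8.6 with cytokines.

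Markers of other cell types were measured in the same ISC-like sums, because Ttr and Krt7 are most abundant in secretory cells. The 14 endocrine markers together were at 3.02 to 7.99 CPM in control and at 5.30 to 17.4 CPM in cytokine-stimulated cells (means 4.76 and 10.4 CPM). The 9 goblet markers were at 273 to 451 and 275 to 826 CPM in these groups, and the 9 Paneth markers at 70.4 to 114 and 103 to 140 CPM. The 7 tuft markers were at 0.604, 1.55 and 180 CPM in control, at 0 to 0.494 CPM in co-culture and at 0 to 1.77 CPM with cytokines, the high control value being that of replicate 3. Of 11 T cell markers, 5 had any UMI, with a sum of at most 2.49 CPM in any group. Without cells that held a UMI of the endocrine list, which left 1357 ISC-like cells, all 4 members were again called lower with cytokines than with Treg plus both antibodies (an alternative added after the data had been seen). The 11 ISC markers were at 3760 to 4270 CPM in control, 2870 to 4250 CPM in co-culture and 2360 to 3300 CPM with cytokines. Olfm4 held the largest part of this sum, with means of 2360, 2080 and 1410 CPM in these groups. Slc12a2 (606, 619 and 455 CPM) and Gkn3 (40.0, 17.2 and 1.65 CPM) were also lower with cytokines. Smoc2 (201, 203 and 166 CPM) and Ascl2 (47.0, 38.4 and 35.5 CPM) were lower with cytokines as well. The same held for the means of Axin2 (135, 126 and 115 CPM) and Cdca7 (243, 232 and 226 CPM). Lgr5 (122, 134 and 120 CPM), Rnf43 (108, 120 and 105 CPM) and Soat1 (142, 152 and 150 CPM) stayed near control. Tnfrsf19 was at 0, 0.618 and 0.294 CPM. The 12 enterocyte markers were at 672 to 823, 670 to 850 and 360 to 632 CPM in the same groups. The 8 EP markers were at 1040 to 1100 CPM in control, 982 to 1100 CPM in co-culture and 631 to 887 CPM with cytokines, the last without overlap with control. The TA markers were at 348 to 523 CPM in control and 540 to 662 CPM with cytokines. The part of these shifts in the values of the 4 genes was not tested.

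The cytokine-stimulated organoids and the co-culture with both antibodies were not used to choose the members. Their comparison asks whether the 4 genes differ between organoids that receive both cytokines and organoids in which both signals are blocked. These groups also differ in Treg cells and in antibodies, and the labels leave IL-2 and beads without T cells unstated. A difference between them is thus not that of the cytokines alone. Ttr fell by 3.55 ± 0.47 on the log2 scale (SE, edgeR quasi-likelihood test with Benjamini-Hochberg adjustment over all genes, adjusted p = 0.000449) in ISC-like cells, a level 11.7-fold lower. Tstd1 fell by 1.62 ± 0.15 (adjusted p = 1.95e-07), which is 3.07-fold. Krt7 fell by 0.45 ± 0.13 (adjusted p = 0.0176), and Sord fell by 0.44 ± 0.14 (adjusted p = 0.0357). All 4 genes were thus called and were lower in 3 of 3 replicates each, with overlapping ranges for Krt7 only, and among all genes tested 5.48% were called lower. The share of all genes whose ranges did not overlap was not counted, here or below. The calls of Krt7 and Sord were lost in some fits, since 2 genes, Ttr and Tstd1, were called when replicate was left out of the model, without replicate 1 and without replicate 3.

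The 4 genes were also called lower in TA-like and cluster 2 cells. In TA-like cells, Ttr was at 32.7, 39.8 and 39.1 CPM with both antibodies and at 2.24, 4.09 and 5.39 CPM with cytokines (log2 fold change -3.14 ± 0.43, edgeR adjusted p = 0.000474). Tstd1, Krt7 and Sord changed by -1.52 ± 0.15, -0.69 ± 0.17 and -0.67 ± 0.19 there, so that all 4 genes were called, against 10.1% of all genes called lower. In cluster 2 cells all 4 were called as well, against 9.17% of all genes. Ttr changed by -3.86 ± 0.35 (edgeR adjusted p = 1.36e-09), from 11 UMIs in the cytokine-stimulated and 206 UMIs in the other group, which is 6.27% of the level with both antibodies (95% exact interval 3.08% to 11.5%, counting error only). Tstd1 changed by -0.86 ± 0.07, Krt7 by -0.89 ± 0.17 and Sord by -1.27 ± 0.23. Without the replicate block or without replicate 3, the count in TA-like cells was 2 genes, Ttr and Tstd1.

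In enterocyte-like cells, Ttr, Krt7 and Sord had larger and Tstd1 a smaller fold change than in ISC-like cells, and the difference between classes passed a test for Sord and Tstd1 only (given after the classes). Ttr was at 9.27, 7.46 and 16.9 CPM with both antibodies and nearly absent with cytokines, with 5 UMIs among 18444246 against 113 among 11242681, which is 2.70% of the level (95% exact interval 0.859% to 6.48%, counting error only). Sord fell from 45.8, 52.7 and 42.3 CPM to 8.44, 26.0 and 10.8 CPM, with a log2 fold change of -1.63 ± 0.27 (edgeR adjusted p = 0.000902). Tstd1 was at 259, 233 and 352 CPM with both antibodies and at 213, 177 and 281 CPM with cytokines, which is a log2 fold change of -0.31 ± 0.07 (edgeR adjusted p = 0.00121). The ranges of Tstd1 overlapped, and each replicate was lower with cytokines. Krt7 changed by -1.12 ± 0.28 (edgeR adjusted p = 0.0121). The 4 calls stand against 13.2% of all genes called lower in this class, and 2 genes, Ttr and Sord, were called without the replicate block.

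In goblet/Paneth-like cells, Ttr was the only member called. Their sums held as few as 8 cells, and 0.411% of 7780 genes were called lower. Ttr was called, with 70.5, 120 and 60.7 CPM with both antibodies and 6.12, 9.86 and 11.7 CPM with cytokines (log2 fold change -3.27 ± 0.33, edgeR adjusted p = 5.68e-07). Krt7, which was at 257, 280 and 303 CPM with both antibodies and at 212, 287 and 319 CPM with cytokines, had a log2 fold change of -0.01 ± 0.14 (edgeR adjusted p = 1.0). Tstd1 was at 25.4, 22.4 and 64.5 CPM against 5.10, 6.72 and 18.5 CPM, and did not pass the test (log2 fold change -1.78 ± 0.51, edgeR adjusted p = 0.13), but it was called by DESeq2, without a filter on low counts, with cells classed by marker score, with sums per library and without replicate 3. Sord did not pass either (log2 fold change -0.44 ± 0.21). Endocrine-like cells, with 5 to 28 cells per sum, were not tested. There Ttr was at 135, 89.9 and 548 CPM with both antibodies and at 241, 71.8 and 196 CPM with cytokines, and Krt7 at 438, 241 and 387 CPM and at 418, 456 and 684 CPM, and the groups overlapped for both.

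**Figure D2:**
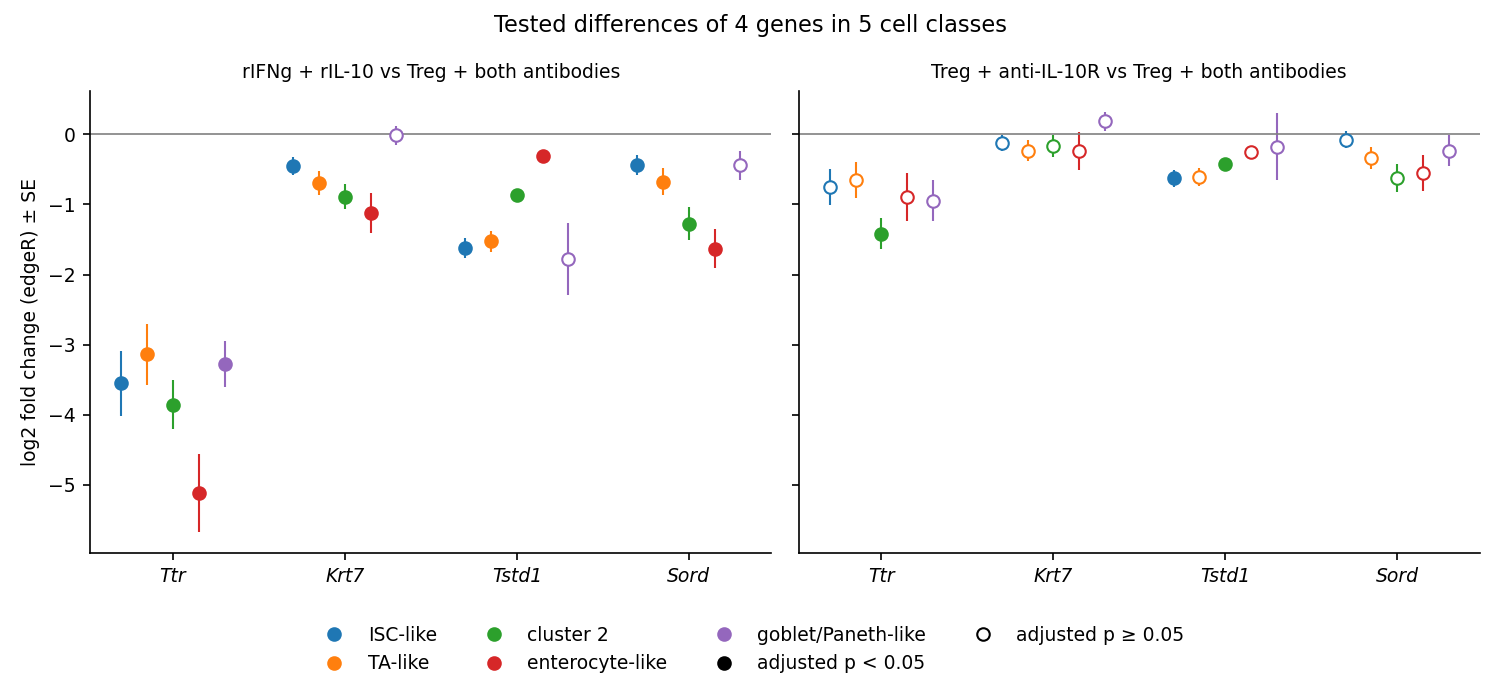
Log2 fold change ± SE (y axis) of the 4 genes (x axis) in 5 cell classes (colors), for rIFNγ plus rIL-10 (left) and Treg plus anti-IL-10R (right), both against Treg plus both antibodies. Filled points have an edgeR adjusted p under 0.05. Ttr has the lowest values on the left (-3.14 to -5.12), Tstd1 comes closest to 0 and Sord moves farthest from 0 in enterocyte-like cells, and on the right only Tstd1 in ISC-like cells and Ttr and Tstd1 in cluster 2 are filled.

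Whether the difference between cytokines and Treg plus both antibodies varied between classes was tested as an interaction. The log2 fold change of Tstd1 in ISC-like cells was lower than that in enterocyte-like cells by 1.32 ± 0.15 (edgeR adjusted p = 4.28e-07) and lower than that in cluster 2 cells by 0.74 ± 0.15 (edgeR adjusted p = 0.00487). For Sord the difference had the other sign, at 1.17 ± 0.31 against enterocyte-like cells (edgeR adjusted p = 0.0211) and 0.84 ± 0.26 against cluster 2 cells (edgeR adjusted p = 0.0857), the latter not past the threshold. Between ISC-like and enterocyte-like cells, 7.5% of all genes were called for such a difference, and 1.98% between ISC-like and cluster 2 cells. None of the 4 genes was called between ISC-like and TA-like cells or between ISC-like and goblet/Paneth-like cells, where 0.0174% and 0.0674% of all genes were called. Differences of Ttr and Krt7 were not called in any of the 4 interactions, and for Ttr their SE of 0.745 to 1.05 leaves wide limits. With no block for the replicate, 0 members were called in either comparison, and without replicate 3 the count was 0 against cluster 2 and 1, Tstd1, against enterocyte-like cells. Sord was also lost against enterocyte-like cells without replicate 1, where 1 gene, Tstd1, was called.

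The comparison of Treg plus anti-IL-10R with Treg plus both antibodies asks what anti-IFNγ adds when the IL-10 receptor is already blocked. Neither of its sides is a group that chose the members. As in the cytokine comparison, control and Treg-only sums still entered the fit, through the shared estimate of spread and the replicate terms. In ISC-like cells, Tstd1 was the only member called, with a log2 fold change of -0.63 ± 0.12 (edgeR adjusted p = 0.0248), and 0.0551% of all genes were called lower. Ttr changed by -0.75 ± 0.26 (edgeR adjusted p = 0.546) and was lower with anti-IL-10R alone in 2 of 3 replicates, while Krt7 (-0.12 ± 0.11) and Sord (-0.07 ± 0.12) lay close to 0. The call of Tstd1 was lost without the replicate block, without replicate 2, without replicate 3 and with cells classed by marker score, and also in 1 random draw that made group sizes equal in cells, although it was kept in another draw, and 2 genes, Ttr and Tstd1, were called without a filter on low counts and without replicate 1. The other 4 classes were tested after the values had been seen. In cluster 2 cells, 2 members were called, against 0.107% of all genes called lower. Ttr was at 16.6, 13.6 and 14.3 CPM with both antibodies and at 7.53, 3.71 and 4.96 CPM with anti-IL-10R (log2 fold change -1.42 ± 0.22, edgeR adjusted p = 0.000484), and Tstd1 was at 179, 155 and 190 CPM and at 143, 104 and 143 CPM (-0.43 ± 0.07, edgeR adjusted p = 0.000484). Both were lower in 3 of 3 replicates, and the groups did not overlap. Without the replicate block 0 members were called in cluster 2 cells, with cells classed by marker score Tstd1 alone and without replicate 3 Ttr alone.

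In TA-like cells, where 0.329% of all genes were called lower, Tstd1 changed by -0.61 ± 0.13 and just missed the threshold (edgeR adjusted p = 0.0515), while DESeq2 called it. None of the members passed in enterocyte-like cells (0.0455% of all genes called lower) or in goblet/Paneth-like cells (0%). Ttr had negative log2 fold changes in all 5 classes, between -0.65 and -1.42. The count of 0 in TA-like cells became 1 or more under DESeq2, marker score classes, equal numbers of cells, library sums, no filter on low counts and without replicate 1 or 2.

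The comparison of Treg plus anti-IFNγ with Treg plus both antibodies asks what anti-IL-10R adds when IFNγ is already blocked, and no difference was detected. Here edgeR called 0% of genes in each of the 5 classes, and DESeq2 called 0 as well. An unadjusted p under 0.05 was found for 299 of 10897 genes in ISC-like cells, fewer than this threshold passes where no gene differs. In ISC-like cells the log2 fold changes were -0.03 ± 0.23 for Ttr, 0.07 ± 0.11 for Krt7, 0.11 ± 0.11 for Tstd1 and 0.07 ± 0.11 for Sord, each smaller than or about as large as its SE. In the other classes the members lay between -0.38 ± 0.29 (Ttr in goblet/Paneth-like cells) and 0.42 ± 0.47 (Tstd1 in the same class).

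The same contrast of Treg co-culture with control is given for other classes as a description, since it shares its design with the rule. In cluster 2 cells, Ttr in co-culture was 34.4%, 20.7% and 46.2% of its control replicate, and in enterocyte-like cells 14.8%, 69.3% and 48.0%. In TA-like cells it was 90.4%, 40.0% and 77.9%, with replicate 2 the lowest. In goblet/Paneth-like cells it was 177%, 66.1% and 93.8% of control, with replicate 1 above its control. Tstd1 was at 88.1%, 60.6% and 73.7% of control in TA-like cells, 81.2%, 79.3% and 74.2% in cluster 2 cells and 87.4%, 84.9% and 88.7% in enterocyte-like cells. Krt7 in endocrine-like cells was above control in replicates 1 and 2, at 191% and 126%, and below it in replicate 3, at 77.5%.

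**Figure D3:**
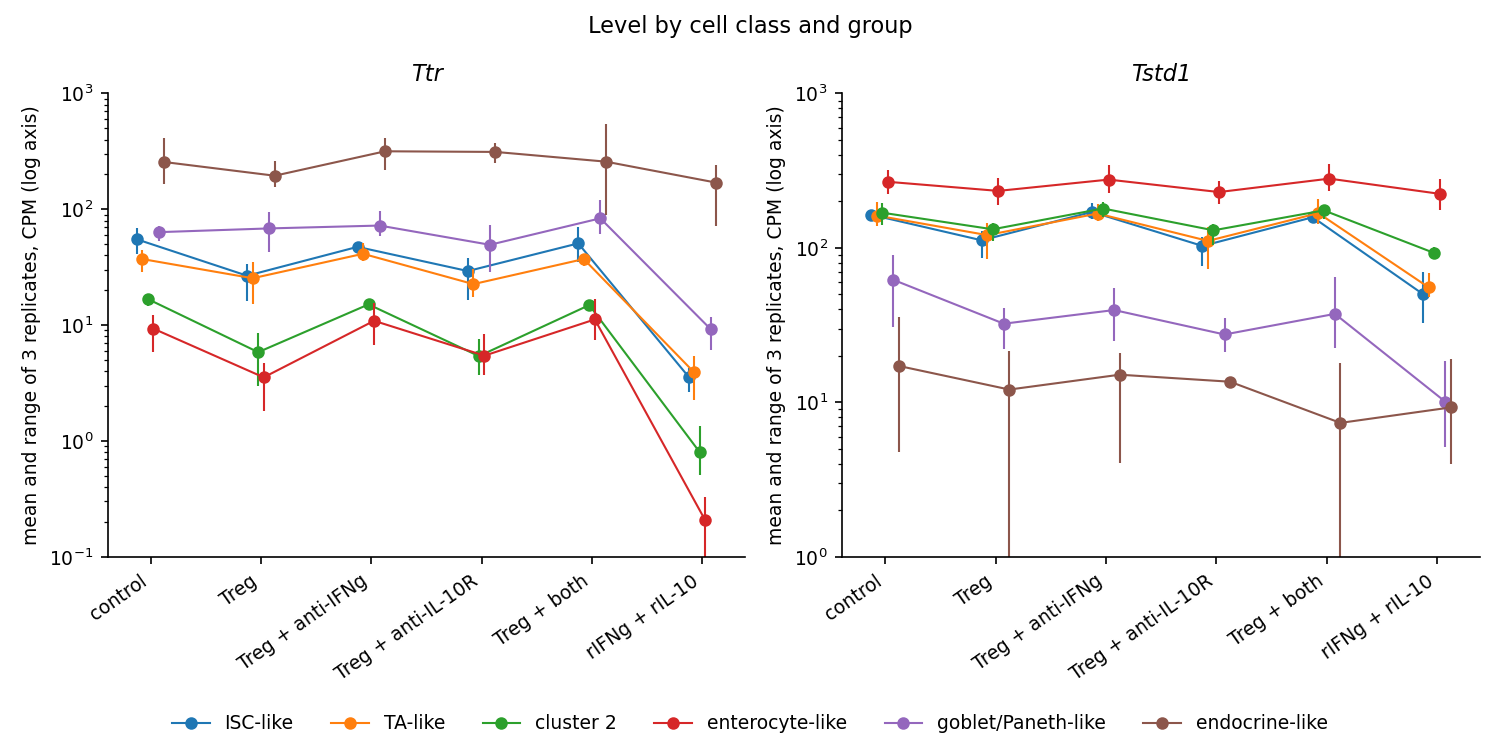
Mean level of Ttr (left) and Tstd1 (right) in CPM on a log axis (y axis) by group (x axis) in 6 cell classes (colors). Vertical lines span the 3 replicates, reaching the lower border where a replicate had 0. Ttr in cytokine-stimulated enterocyte-like cells is lowest, at 0.329, 0.293 and 0 CPM, while endocrine-like cells are at 71.8 to 241 CPM in that group, and Tstd1 in cytokine-stimulated enterocyte-like cells lies between 177 and 281 CPM, against 233 to 352 CPM with both antibodies.

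Among the cell classes of control organoids, the 4 genes had different orders. Ttr was highest in endocrine-like cells (256 CPM ± 140, SD, n = 3), which did not overlap with the next class, followed by goblet/Paneth-like (63.5 ± 9.0), ISC-like (55.1 ± 14) and TA-like cells (37.2 ± 8.0), whose neighbors overlapped, and by cluster 2 (16.8 ± 2.1) and enterocyte-like cells (9.33 ± 3.2), which did not. The ISC-like replicates thus lay above all enterocyte-like replicates. Tstd1 had nearly the opposite order, with 268 CPM ± 49 in enterocyte-like cells, 169 ± 28, 164 ± 14 and 162 ± 31 in the overlapping cluster 2, ISC-like and TA-like cells, 62.1 ± 30 in goblet/Paneth-like and 17.2 ± 16 in endocrine-like cells. Krt7 had its highest levels in the secretory classes, with 415 CPM ± 170 in endocrine-like and 270 ± 59 in goblet/Paneth-like cells, and lower in ISC-like (85.9 ± 21), TA-like (60.0 ± 13), enterocyte-like (50.9 ± 11) and cluster 2 cells (36.4 ± 13), each of which overlapped with the next. Sord ranged least, from 70.9 CPM ± 26 in endocrine-like through 48.0 ± 2.7 in enterocyte-like, 47.3 ± 9.4 in goblet/Paneth-like and 47.3 ± 4.1 in ISC-like cells to 35.3 ± 5.9 in TA-like and 28.0 ± 3.1 in cluster 2 cells. The endocrine-like values rest on few molecules, for example 31 Sord UMIs in all 3 control replicates.

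**Figure D4:**
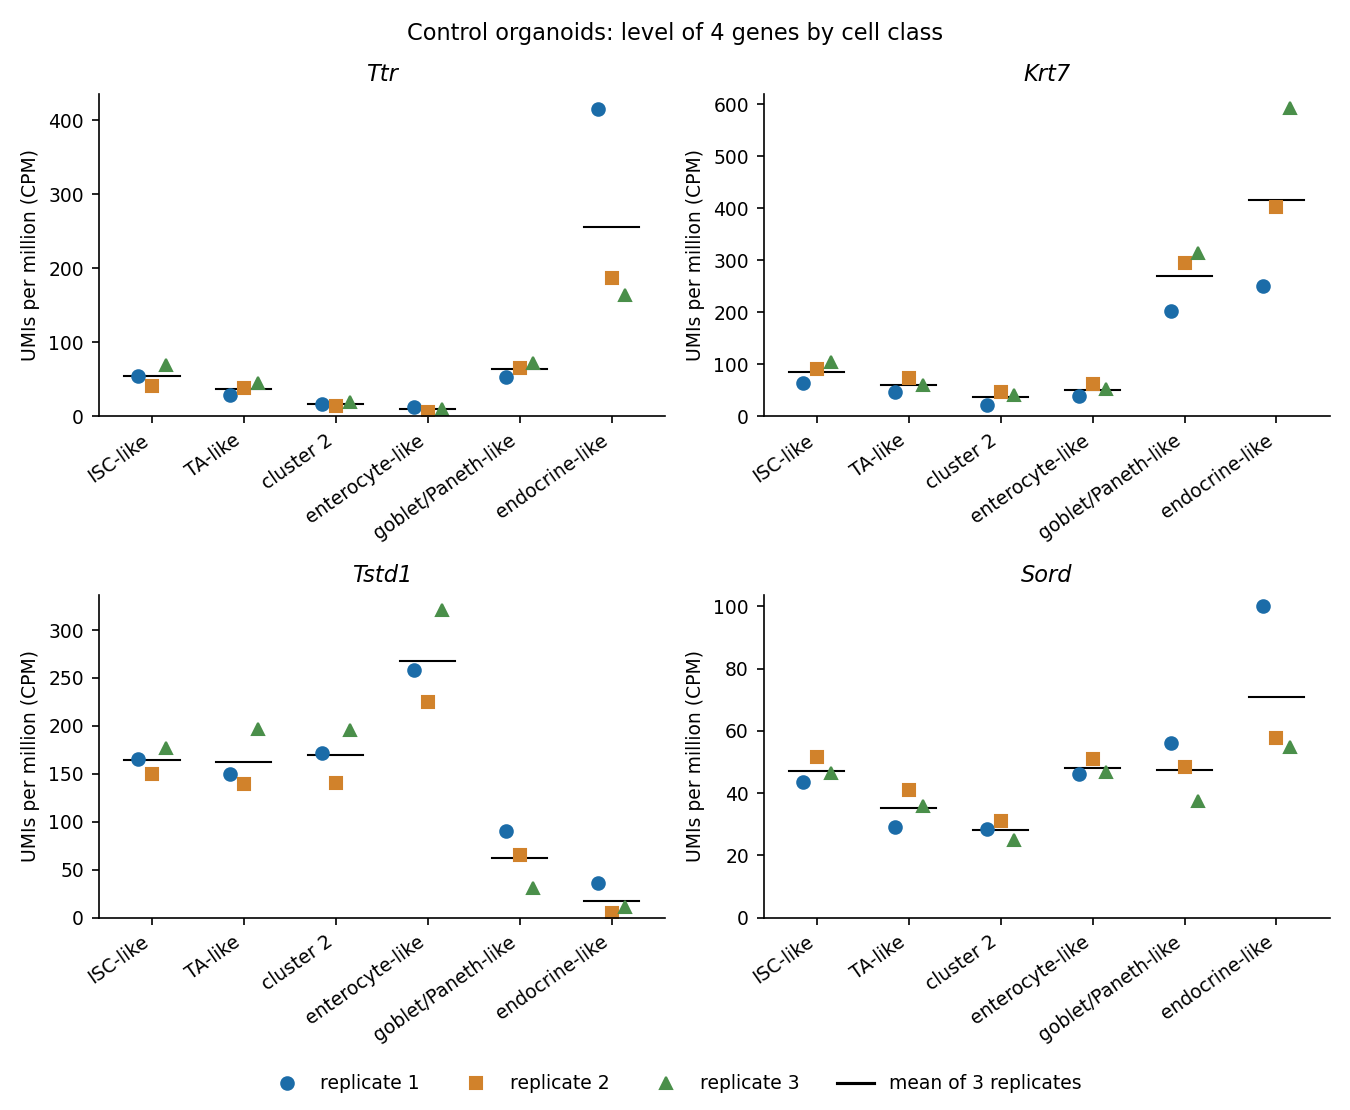
Level of the 4 genes in CPM (y axis, from 0) in 6 cell classes of control organoids (x axis). Points are replicates 1 to 3 and black lines are their means. Ttr and Krt7 are highest in endocrine-like cells (256 and 415), Tstd1 is highest in enterocyte-like cells (268) and Sord varies least.

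The shares of the classes were not tested and are given for the values they may touch. ISC-like cells made up 16.3% ± 1.9 (SD, n = 3) of the control cells, 14.4% ± 2.4 of the co-cultured cells, 19.6% ± 0.44 of the cells with both antibodies and 8.30% ± 2.7 of the cytokine-stimulated cells. Goblet/Paneth-like cells made up 2.12% ± 0.26 of the control and 9.60% ± 1.5 of the cytokine-stimulated cells, and 2 clusters that stayed unnamed, 1 led by S phase genes, held 15.2% ± 0.85 and 4.71% ± 2.1 of the control and 18.1% ± 3.6 and 5.14% ± 2.3 of the cytokine-stimulated cells. Their part in the values of the 4 genes was not tested.

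Genes of the pathways around each member were taken from lists that hold none of the members. These lists were chosen with earlier results of these data known, so that the counts in them are a description. Between cytokine stimulation and Treg plus both antibodies in ISC-like cells, 5.48% of all 10897 genes were called lower (597 genes) and 569 genes were called higher, and the counts in the lists are to be read against these. In this comparison, 4 of 11 tested genes of thyroxine and retinol transport were called, all lower, with a median log2 fold change of -0.50 over the list against 0.01 over all genes. The called genes were Lrat, which esterifies retinol (-2.15 ± 0.41), Rdh10, a retinol dehydrogenase (-0.90 ± 0.20), and the thyroid hormone receptors Thrb (-1.01 ± 0.13) and Thra (-0.62 ± 0.12). Of 9 keratins and anchors of keratin filaments, 1 was called lower, the type I keratin Krt18 (-0.30 ± 0.07), with a median of -0.30. Among 13 genes of sulfide and thiol metabolism, the sulfide oxidizing enzyme Sqor (-1.26 ± 0.29) and the glutathione synthetase Gss (-0.35 ± 0.11) were lower and thioredoxin Txn1 (0.36 ± 0.05) higher, with a median of -0.03. Tstd2 and Tstd3, which share the name of Tstd1, had log2 fold changes of 0.05 ± 0.20 and 0.55 ± 0.44 and were not called. Of 7 genes of the polyol pathway and fructose use, Tkfc, which phosphorylates the glyceraldehyde made from fructose, was lower (-0.67 ± 0.14) and hexokinase 2 (Hk2) higher (0.80 ± 0.12), with a median of -0.49. In the same comparison, the interferon response genes Irf1, a transcription factor (3.58 ± 0.36), and Cd74, the invariant chain of MHC class II (9.34 ± 0.98), were called higher. Between Treg co-culture and control, 0 genes of these lists passed, in a contrast in which no gene passed with edgeR, and the log2 fold changes of Irf1 and Cd74 were 2.17 ± 0.44 and 5.60 ± 1.12.

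Across the 18 ISC-like sums, after the mean of each replicate had been removed, the pattern of Ttr was most like those of Sult1d1 (Pearson r = 0.972 on log2(CPM + 1) values), Tm9sf3 (0.971) and Mgst3 (0.968) among 7715 genes. That of Tstd1 was most like Ccl25 (0.978), Gm1123 (0.969) and Gkn3 (0.967), that of Krt7 most like Tmem176a (0.935), Aldh2 (0.933) and Fxyd3 (0.927), and that of Sord most like Iah1 (0.932), Tysnd1 (0.927) and Anxa4 (0.904). Gkn3, 1 of the 11 ISC markers, had means of 40.0 CPM in control, 17.2 with Treg cells, 19.4 with Treg plus anti-IL-10R, 37.8 with Treg plus anti-IFNγ, 43.8 with both antibodies and 1.65 CPM with cytokines. Olfm4 of the same list was also lower with Treg cells (2080) and cytokines (1410) than in control (2360 CPM). The means of Ascl2, Axin2 and Cdca7, given above, were lower in both groups as well, and those of Slc12a2 and Smoc2 with cytokines only. Lgr5 (122 in control, 134 with Treg cells and 120 CPM with cytokines) and Soat1 (142, 152 and 150 CPM) did not follow Gkn3. Among the members, r was highest between Ttr and Tstd1 (0.955) and lowest between Krt7 and Sord (0.776). These sums share libraries and control cells and were partly used to choose the members, so that the correlations are a description. Over the 18 class by replicate sums of control cells, in contrast, Ttr and Tstd1 had r = -0.781 and Krt7 and Tstd1 had r = -0.864. Most like Ttr were Lrpap1 (0.973), Agr3 (0.964) and Arhgef28 (0.963), most like Krt7 were Rcan3 (0.967), Camk2n1 (0.958) and Gm14207 (0.958), most like Tstd1 were Cox7b (0.965), Gstm2 (0.942) and Timm8b (0.941), and most like Sord were Gm36738 (0.936), Hook3 (0.859) and Rab10os (0.840). The genes that were most like a member across groups were thus not those that were most like it across cell classes.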

How the data were processed

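The authors mapped reads with Cell Ranger 7.0.0 to mm10 (submitters' processing notes, which also list Seurat 4.0.5) and deposited unnormalized UMI counts per gene, hashtag and barcode. Of 6 libraries, 1 of replicate 3 (9100 barcodes, 40121095 UMIs) was left out, as in the study, which named low counts and poor hashtag labeling. Hashtags were called with HTODemux (Seurat 5.3.0). Hashtag doublets and cells resembling simulated doublets were removed. In 1 library the score of this likeness tended to be lower in hashtag doublets than in single cells (area under the curve 0.21). Removal by this score was thus not reliable there. In most of the others it separated hashtag doublets weakly (0.552, 0.586 and 0.593), and the highest value was 0.705. The limits per cell were 10000 and 90000 for UMIs, 3000 and 10000 for genes and 8.5% for mitochondrial UMIs. Control cells were clustered, clusters took names from a set of markers, and all cells were assigned by correlation. CPM values are UMIs per 1000000 UMIs of a sum. The limits for names, and the minimum log2 fold for assignment genes (0.4 after 1 had been tried), were set after the clusters had been seen, so that classes may differ from those of the study. The cluster now called 2 had been intended as EP cells. With classes set by marker score, the EP list takes its place.

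Counts were summed per class, group and replicate, replicates being 3 independent experiments. edgeR 4.0.16 (quasi-likelihood test, TMM, filterByExpr) fitted all 6 groups per class with replicate as a block and p-values adjusted over all genes. Each SE of a log2 fold change is its absolute value divided by the square root of the F statistic of this test. It was not estimated apart from the test. DESeq2 1.42.0 (R 4.3.3) was an alternative. The numbers pair the samples because equal numbers are the same experiment and libraries, and the deviations of samples with equal numbers had a mean correlation of 0.343 in ISC-like cells. In simulated ISC-like sums with 10807 genes, 100% of 103 genes changed 4-fold and 61.9% of 97 changed 2-fold were called, with 7 unchanged genes called. The simulation gave all genes the same fixed dispersion and no replicate effect, and changed only genes above a limit on their mean count. These shares therefore need not hold for the real sums. The genes and lists were chosen with earlier results of these data known. Genes named beside the members were the 3 with the highest Pearson r to each member and the called genes of the lists. The other 4 classes with anti-IL-10R or anti-IFNγ, the fits without the library of poor doublet score and without cells with endocrine UMIs were added after the values had been seen. Intervals and floors cover counting error only. One gene of the interferon list is not reported here.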

Additional observations from a re-analysis of the deposited data

Results flagged for a closer look

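In 3 tests the log2 fold change between cytokines and Treg plus both antibodies varied between cell classes by the interaction term of edgeR. Tstd1 had a log2 fold change lower in ISC-like than in enterocyte-like cells, with a difference of -1.32 ± 0.15 (edgeR adjusted p = 4.28e-07), and lower than in cluster 2 cells, with a difference of -0.74 ± 0.15 (edgeR adjusted p = 0.00487). Sord had a difference of the other sign between ISC-like and enterocyte-like cells, at 1.17 ± 0.31 (edgeR adjusted p = 0.0211).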

How the results depend on the processing

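Of the alternative counts of members called, 222 stayed within 1.5 times the main count and 40 did not. The 222 include counts of 0 that stayed 0, such as those of anti-IFNγ against both antibodies. They are thus no measure of how stable the calls were. With no replicate block, cytokines against both antibodies gave 2 members in ISC-like, TA-like and enterocyte-like cells, anti-IL-10R gave 0 in ISC-like and cluster 2 cells, and both called interactions gave 0. Goblet/Paneth-like cells gave 2 members for cytokines with marker score, DESeq2, library sums and no filter. Anti-IL-10R gave 0 in ISC-like cells with marker score or equal cells and 2 with no filter. The value with equal cells is that of 1 random draw, and another draw kept the call of Tstd1. In TA-like cells it gave 1 with marker score, DESeq2, equal cells or library sums and 3 with no filter, in cluster 2 cells 1 with marker score, in enterocyte-like cells 1 with library sums and 2 with no filter, and in goblet/Paneth-like cells 1 with no filter. The interaction with cluster 2 gave 2 with library sums or no filter, and that with goblet/Paneth-like cells 1 with marker score. Leaving out replicates gave 2 to 3 (ISC-like), 2 to 4 (TA-like), 3 to 4 (enterocyte-like) and 1 to 2 (goblet/Paneth-like) for cytokines, 0 to 2 (ISC-like, TA-like) and 1 to 3 (cluster 2) for anti-IL-10R, and 0 to 2 (cluster 2) and 1 to 2 (enterocyte-like) for interactions. The cause was not tested. Leaving out the library of poor doublet score moved no count beyond 1.5 times.

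Of the log2 fold changes of single members, 742 kept side and direction, 32 lost and 28 gained a call, and 24 uncalled ones changed sign. Krt7 with cytokines in goblet/Paneth-like cells became 0.007 (lower UMI limit), 0.0 (marker score), 0.037 (no filter), 0.016 (no replicate block), 0.087 (only hashtag doublets removed), 0.025 (without the library of poor doublet score) and -0.062 to 0.093 without 1 replicate. With equal cells, Sord with anti-IL-10R became 0.067 and Ttr with anti-IFNγ 0.071 in ISC-like cells. With anti-IFNγ there, Krt7 became -0.056 (marker score), Ttr 0.016 (library sums) and Sord -0.022 (without endocrine UMIs), and without 1 replicate Sord had -0.028 to 0.141 and Ttr -0.237 to 0.137. Tstd1 with anti-IL-10R in goblet/Paneth-like cells had -0.58 to 0.228 without 1 replicate. Interactions became -0.19 for Krt7 with cluster 2 (marker score), -0.048 for Ttr with enterocyte-like cells (only hashtag doublets removed), and 0.012 (library size without TMM) and 0.004 (only hashtag doublets removed) for Sord with goblet/Paneth-like cells. Without 1 replicate they had -0.195 to 0.205 for Sord and -0.904 to 0.179 for Ttr with goblet/Paneth-like cells, -0.269 to 0.078 for Tstd1 with TA-like cells and -0.154 to 0.8 for Ttr with cluster 2.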

Other observations

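The library left out of the comparisons belonged to replicate 3, held the same 6 hashtag groups at lower depth and was not divided into classes. The study excluded this library for low counts and for much ambiguous or insufficient hashtag labeling, on which the group values below rest. Over all its hashtagged single cells, Ttr was at 31.9 CPM in control, 17.5 with Treg cells, 26.3 with Treg plus anti-IFNγ, 13.7 with Treg plus anti-IL-10R, 27.9 with both antibodies and 9.46 CPM with rIFNγ plus rIL-10. Tstd1 was at 151, 121, 163, 115, 163 and 91.6 CPM in the same order. Krt7 was at 71.7, 50.8, 59.4, 56.2, 72.8 and 55.3 CPM, and Sord at 40.9, 39.2, 38.0, 31.3, 45.1 and 35.3 CPM. These values come from 1 library with 339 to 704 cells per group, without replicate and without a test.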
